A study of Mus musculus with 45 samples.

Results

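The 8 genes described here encode costimulatory and activation proteins of B cells: Cd80, Cd86, Icosl, Cd40, Cd83, Cd69, Cd44 and Il2ra. They were taken by gene symbol, all 8 were found among the 30317 symbols of the deposited table, and all 8 were among the 15614 genes tested. PolyA RNA was sequenced from follicular B cells of mouse spleen with the genotype B6.Blimp1GFP/+, in which 1 allele of Blimp1 carries GFP, so every group shares that allele. Below, DL1 cells are those grown over OP9-DL1, stroma that carries the Notch ligand Delta-like 1, and OP9 cells are those grown over the parent stroma, which derives from mouse bone marrow. Cultures were left unstimulated for 68 h, or received lipopolysaccharide (LPS, which acts through TLR4) or anti-IgM F(ab')2 (which crosslinks the B cell receptor) for 20, 44 or 68 h, each at 10 µg/mL. A last group holds Blimp1+ cells sorted from DL1 cells under LPS, with no time in its labels, so that 45 libraries form 15 groups of 3. All libraries come from viable sorted cells, and LPS libraries called unsorted below are those whose labels name no Blimp1 selection. Whether the replicates come from different mice or wells is not labelled, and p-values here measure the spread between libraries, which may be technical. The age of the mice is not labelled, and the RNA comes from bulk cells, so fewer cells of a type and less RNA per cell cannot be told apart.

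CD80 and CD86 on a B cell bind CD28 and CTLA-4 on T cells, and ICOS ligand, the product of Icosl, binds ICOS on follicular helper T cells. CD40 is the receptor through which T cells license B cells, by way of TRAF adaptors and NF-κB. CD83 stabilises CD86 and MHC class II at the surface, CD69 holds activated lymphocytes in the organ by opposing the receptor S1PR1, CD44 binds hyaluronan, and Il2ra encodes the α chain (CD25) of the high-affinity IL-2 receptor. TLR4 and the B cell receptor both reach NF-κB, and Notch signals through RBPJ.

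In GRCm38 (GENCODE annotation) the genes of the B7 family lie at chr16:38455561-38496335 (Cd80, plus strand), chr16:36603869-36666081 (Cd86, minus strand) and chr10:78069302-78083913 (Icosl, plus strand). Cd40 lies at chr2:165055627-165072948 and Cd83 at chr13:43784775-43803132, both on the plus strand. Cd69 lies at chr6:129267325-129275436 (minus strand), Cd44 at chr2:102811141-102901665 (minus strand) and Il2ra at chr2:11642807-11693193 (plus strand). The values are per whole gene, so they do not say which transcript was made.

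RefSeq promoter windows (GRCm38.p6, 250 bases before to 50 bases after a gene's start) were matched for 4 of the 8 genes. The 3 below are shown because their group means span the widest ranges of the 8 genes. They were searched on both strands for the NF-κB site (κB, which 8.5% of 32851 such windows hold), for TGGGAA, the core that RBPJ binds (25.6%), and for TGANTCA, an AP-1 site (7.8%). Capitals mark the matches, and positions count from the RefSeq start of the gene.
Cd80 (chr16:38458683-38458982, plus strand): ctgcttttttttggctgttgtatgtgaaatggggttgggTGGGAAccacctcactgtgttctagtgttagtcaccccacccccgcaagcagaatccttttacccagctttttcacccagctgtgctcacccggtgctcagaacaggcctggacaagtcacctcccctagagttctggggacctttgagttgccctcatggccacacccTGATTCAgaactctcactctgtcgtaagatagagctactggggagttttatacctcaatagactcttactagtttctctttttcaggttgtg
Icosl (chr10:78069118-78069417, plus strand): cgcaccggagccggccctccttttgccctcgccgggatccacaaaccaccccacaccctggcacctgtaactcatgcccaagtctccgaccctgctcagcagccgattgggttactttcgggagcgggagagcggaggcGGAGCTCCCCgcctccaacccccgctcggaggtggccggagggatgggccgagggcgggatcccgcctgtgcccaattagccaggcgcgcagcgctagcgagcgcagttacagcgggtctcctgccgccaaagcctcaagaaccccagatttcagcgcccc
Il2ra (chr2:11642542-11642841, plus strand): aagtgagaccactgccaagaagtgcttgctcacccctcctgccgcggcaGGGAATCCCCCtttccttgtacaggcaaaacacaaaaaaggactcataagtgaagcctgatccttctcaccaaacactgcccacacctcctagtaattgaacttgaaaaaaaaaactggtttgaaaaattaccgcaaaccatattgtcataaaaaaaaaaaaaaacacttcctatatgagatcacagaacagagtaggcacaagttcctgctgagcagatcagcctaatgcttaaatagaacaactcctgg

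The Cd80 window holds TGGGAA at -211 and TGATTCA at -42. The Icosl window holds a κB match on the minus strand at -111, and the Il2ra window holds overlapping κB matches at -201 and -200. The Cd44 window, not printed, holds TGGGAA at -207 and, on the minus strand, at -179. Each match describes these letters and is not evidence of binding.

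Depth, inferred from the authors' log2 values, ranged from 3.07 to 29.1 M estimated reads a library. In 10 libraries Actb, an actin gene, measured 12350 to 85340 TPM (transcripts per 1e+06, a level corrected for transcript length), against 217 to 2974 TPM in the other 35. Of these 10, 6 make up whole groups of 20 h, namely LPS on OP9-DL1 and anti-IgM on OP9. The other 4 are replicate 3 at 68 h in LPS cultures of either stroma, in anti-IgM cultures on OP9 and in unstimulated cells on OP9. At 20 h this difference and the stroma cannot be told apart, and at 44 h no library shows it. Summed over 7 B cell markers, the libraries held 512 to 6848 TPM, and the lowest was unstimulated OP9 replicate 1. A list of 17 stromal genes summed to 13.8 to 482 TPM in 42 libraries, and unstimulated cells on OP9 had 16330, 11600 and 923 TPM. A list of 10 T cell markers summed to 1.94 to 28.1 TPM. Of these, Cd3e was at 0 in 33 libraries, Icos in 35 and Cd40lg in 36, while Cd3d was at 0 in none (at most 2.69 TPM), Cd8a in 2 (at most 2.28), Cd3g reached 17 in an unstimulated DL1 library, and Ctla4 was at 0 in 3 and reached 25.6 in Blimp1+ cells. Of 11 myeloid and dendritic markers, 10 are in the table, with a sum of 7.11 to 251 TPM. Flt3 was at 0 in no library (median 14.8, at most 242.8 TPM in an OP9 library with LPS at 20 h), Itgam (at most 5.57) and Zbtb46 (at most 10.8) were also at 0 in none, and Lyz2 reached 77.3 in unstimulated OP9 replicate 1. Fcgr1, Cd209a, Clec9a, S100a8 and S100a9 were at 0 in 37 to 44 libraries.

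Values below are scaled TPM, that is TPM divided by a size factor of the library. Cd83 was the most abundant of the 8 transcripts, with a median of 921 scaled TPM over the 45 libraries. Cd40 (75.4), Cd86 (49.0) and Cd44 (34.2) followed, then Cd69 (13.6) and Il2ra (8.84). Cd80 (1.69) and Icosl (0.949) were scarce, with a median of 15 and 14.0 estimated reads per library, so their values carry the largest counting error. From the highest to the lowest group mean, Icosl spanned 177-fold, Cd80 48.9-fold, Il2ra 31.9-fold, Cd69 30.8-fold, Cd44 16.3-fold, Cd83 12.9-fold, Cd40 8.44-fold and Cd86 5.77-fold. With the 15 groups of a gene ordered by their means, most neighbours in the order shared part of their ranges, from 11 of 14 neighbouring pairs for Cd40 and Cd69 to 13 of 14 for Cd83.

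**Figure D1:**
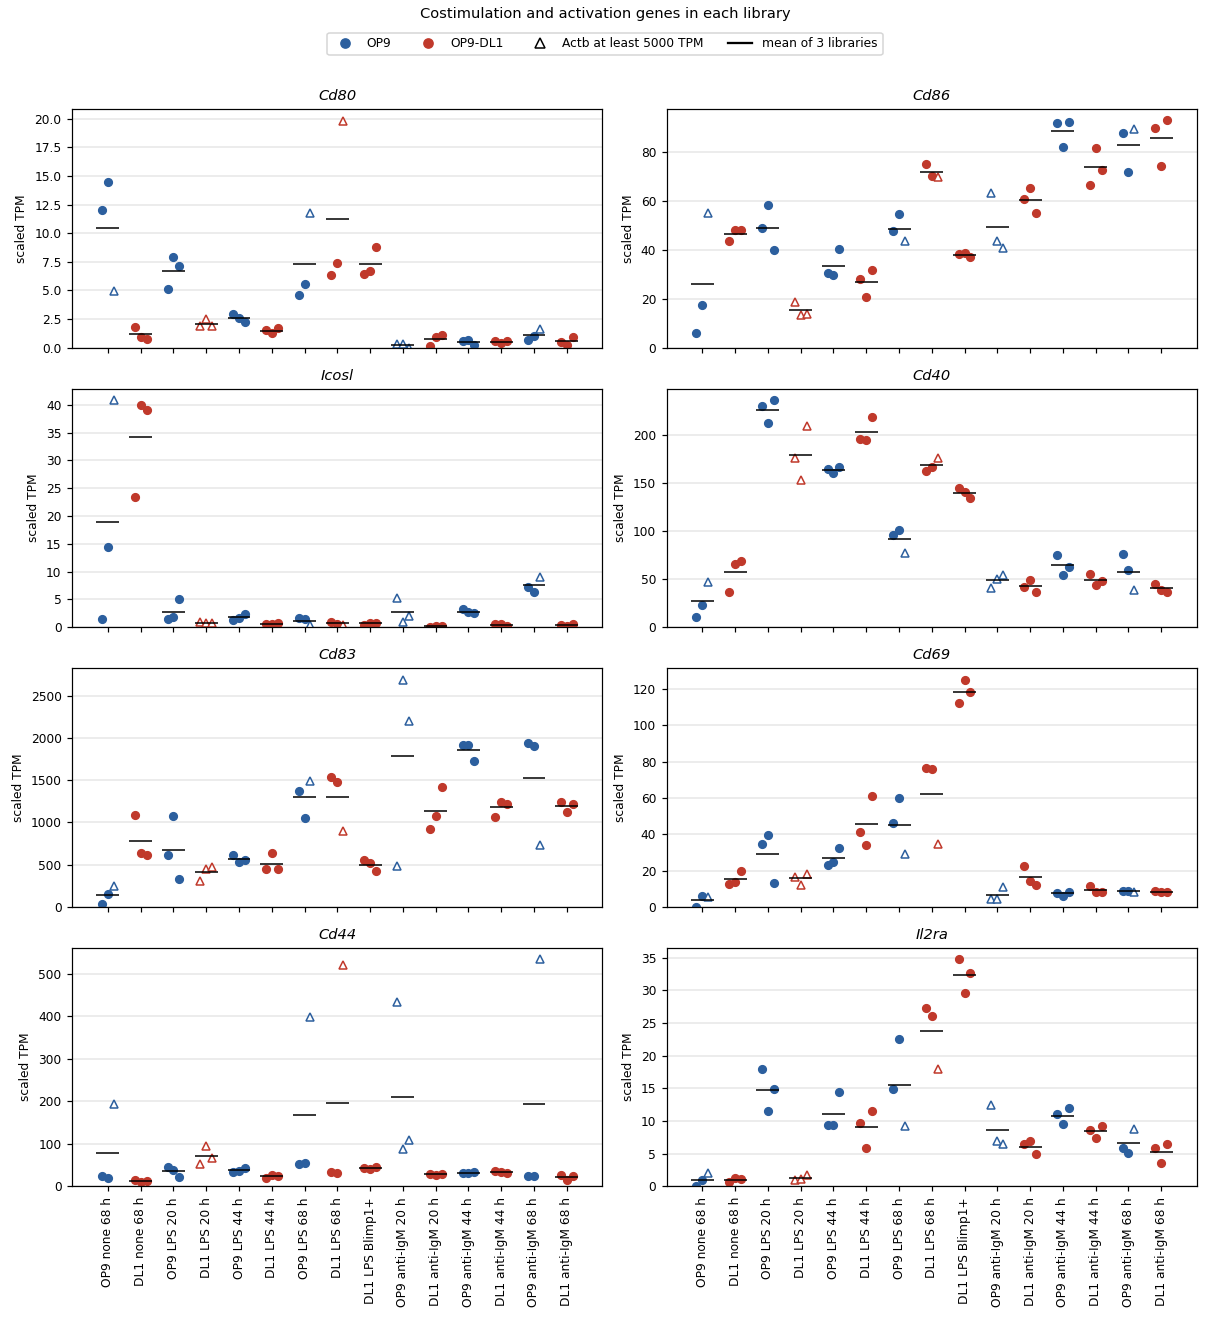
Scaled TPM (linear axis from 0) of the 8 genes in all 45 libraries, with groups along the horizontal axis (stroma, stimulus, time), blue for OP9, red for OP9-DL1, open triangles for the 10 libraries with Actb of at least 5000 TPM and a black line at each mean of 3. Cd40 separated the 18 unsorted LPS libraries (76.8 to 236) from the 18 anti-IgM libraries (36.5 to 75.7), and every Cd44 value above 53.9 was a triangle.

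Among the B7 ligands, Cd80 was higher in LPS than in anti-IgM cultures. It measured 6.39, 7.41 and 19.8 scaled TPM in DL1 cells with LPS at 68 h and 4.59, 5.53 and 11.7 in OP9 cells with LPS at 68 h, and the highest value of each group was its replicate 3 with high Actb. With anti-IgM at 68 h it measured 0.659, 1.00 and 1.6 in OP9 cells and 0.543, 0.256 and 0.966 in DL1 cells. All 18 anti-IgM libraries lay at or below 1.6, with 1 of them listed at 0, and the unsorted LPS libraries ranged from 1.26 to 19.8. Unstimulated cells split by stroma, with 12.1, 14.5 and 4.94 on OP9 and 1.78, 0.966 and 0.720 on OP9-DL1.

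Cd86 ran highest with anti-IgM, from 40.9 to 93.2 scaled TPM in 18 libraries with a median of 73.7, against 13.4 to 75.1 with a median of 40.1 in the 18 unsorted LPS libraries. At 44 h it measured 91.9, 82.0 and 92.5 in OP9 cells with anti-IgM and 30.5, 29.6 and 40.3 in OP9 cells with LPS, and the groups did not overlap. By 68 h the DL1 cells with LPS had reached 75.1, 70.1 and 70.0, beside 90.1, 74.5 and 93.2 with anti-IgM, which overlapped. The groups with the 5 highest means, from 71.7 to 88.8, overlapped from one to the next in that order.

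Icosl was highest in unstimulated DL1 cells and low in every stimulated culture on that stroma. It measured 23.5, 39.9 and 39.1 scaled TPM there, and at most 0.949 in each of the 21 stimulated DL1 libraries, the Blimp1+ sort included. On OP9 it stayed measurable under stimulation, from 0.441 to 9.10 in 18 libraries, with the highest values in anti-IgM cells at 68 h (7.18, 6.31 and 9.10). Unstimulated OP9 cells spread from 1.41 through 14.5 to 40.8, from the library with the most stromal RNA to the one with the least. The library at 40.8 is also the one of this group with high Actb, so the order follows both differences. The lowest 7 of the 15 group means of Icosl were those of the 7 stimulated DL1 groups.

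Cd40, the receptor for T cell help, was higher in LPS than in anti-IgM libraries, though on OP9 at 68 h this difference did not pass the test. The 18 unsorted LPS libraries ranged from 76.8 to 236 scaled TPM and the 18 anti-IgM libraries from 36.5 to 75.7, without overlap. DL1 cells with LPS at 20 h, all with high Actb, stood at 176, 153 and 209. OP9 cells with LPS stood at 230, 212 and 236 at 20 h, 164, 161 and 167 at 44 h, and 96.1, 101 and 76.8 at 68 h. DL1 cells with LPS stood at 195, 194 and 218 at 44 h and 162, 167 and 176 at 68 h. At 68 h every DL1 library with LPS thus lay above every OP9 library with LPS, though this difference did not pass the test described below.

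Cd83, which stabilises CD86, was abundant in stimulated cells and lowest in unstimulated OP9 cells (35.1, 149 and 248 scaled TPM). In OP9 cells with anti-IgM it measured 1915, 1921 and 1723 at 44 h and 1937, 1903 and 736 at 68 h, the last in the library with high Actb. At 20 h the same culture gave 478, 2691 and 2199, so that replicate 1 stood apart from the other 2. With LPS at 20 h it measured 619, 1077 and 335 on OP9 and 307, 450.5 and 466.5 on OP9-DL1, the last 3 in libraries with high Actb. At 44 h LPS cells had 616, 532 and 559 on OP9 and 445, 637 and 453 on OP9-DL1. At 68 h they had 1371, 1055 and 1492 on OP9 and 1535, 1479 and 898 on OP9-DL1.

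Cd69, the retention receptor, ranged from 12.2 to 76.3 scaled TPM in the 18 unsorted LPS libraries (median 34.2), from 4.25 to 22.5 in the 18 anti-IgM libraries (median 8.44) and from 0 to 20.0 in the 6 unstimulated ones, so the ranges overlapped. The anti-IgM values above the lowest LPS value were 22.5 and 14.4 in DL1 cells at 20 h. Blimp1+ cells had the most, at 113, 125 and 118 scaled TPM, above every other library (at most 76.3). DL1 cells with LPS measured 41.2, 34.0 and 61.2 at 44 h and 76.3, 76.1 and 34.4 at 68 h. With anti-IgM at 68 h the values were 9.0, 7.92 and 8.42 in DL1 cells and 8.81, 8.95 and 8.36 in OP9 cells, and all 6 lay below every LPS library. Unstimulated OP9 cells were listed at 0, 6.18 and 5.39.

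Cd44, the hyaluronan receptor, tracked the libraries with high Actb. It measured 52.4 to 535 scaled TPM in those 10 and 10.9 to 53.9 in the other 35. Replicate 3 with high Actb at 68 h read 195 in unstimulated cells, 398 with LPS and 535 with anti-IgM on OP9, and 521 with LPS on OP9-DL1, beside 19.4 to 53.9 in the other 2 libraries of each of those groups. Among the other 35 libraries, unstimulated DL1 cells were lowest (14.8, 10.9 and 13.1), and OP9 cells with LPS at 68 h (52.8 and 53.9) and Blimp1+ cells (42.6, 41.5 and 46.7) were high.

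Il2ra, the α chain of the IL-2 receptor, was near the detection limit in unstimulated cells, at 0.112, 0.981 and 1.98 scaled TPM on OP9 and 0.641, 1.27 and 1.13 on OP9-DL1. DL1 cells with LPS had 0.975, 1.18 and 1.75 at 20 h, 9.77, 5.93 and 11.5 at 44 h and 27.3, 26.0 and 18 at 68 h, so the times did not overlap. The libraries at 20 h have high Actb, as does the one at 18. Blimp1+ cells had 34.8, 29.6 and 32.6. All 18 anti-IgM libraries lay between 3.52 and 12.4.

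The first comparison asked what each stimulus did at 68 h, with limma on log2(scaled TPM + 1) and a call at an adjusted p below 0.05. Values after ± are standard errors of log2 changes, n = 3 libraries a group. All 45 libraries share 1 estimate of the spread, and fitted on only the groups compared, 37 of the 60 calls over 27 comparisons were lost. In DL1 cells LPS raised 4 of the 8 genes and lowered 1, where 8.1% of all genes tested were called. Il2ra rose by a log2 of 3.61 ± 0.33 (adjusted p = 7.6e-10), Cd80 by 2.37 ± 0.35 (1.3e-05), Cd69 by 1.89 ± 0.47 (0.0072) and Cd40 by 1.6 ± 0.29 (0.00027). Icosl fell with a log2 of -4.35 ± 0.52 (3.4e-07). Cd86 (0.61 ± 0.35) and Cd83 (0.76 ± 0.50) did not pass, and neither did Cd44 (2.62 ± 0.89, adjusted p = 0.064). Without the high-Actb libraries Cd44 was called at 1.31, and with the replicate number as a block (the replicate block) at 2.62 with an adjusted p of 0.038. The Cd69 call was lost with TPM as deposited, the authors' log2 table or a pseudocount of 0.1, and the Cd40 call with the first 2 of these. With only the groups compared in the fit, the calls of Cd80, Cd40 and Cd69 were lost.

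In DL1 cells at 68 h anti-IgM raised Il2ra by a log2 of 1.63 ± 0.33 (adjusted p = 0.00076) and lowered Icosl (-4.55 ± 0.52, adjusted p = 1.8e-07), 2 of the 8 genes, where 9.52% of all genes were called. Cd40 (-0.44 ± 0.29), Cd80 (-0.43 ± 0.35), Cd69 (-0.76 ± 0.47) and Cd83 (0.67 ± 0.50) did not pass. None of these libraries has high Actb. The fit that left such libraries out of the other groups called Cd86 at 0.86 (adjusted p = 0.0051) and Cd44 at 0.67 (0.013) too.

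**Figure D2:**
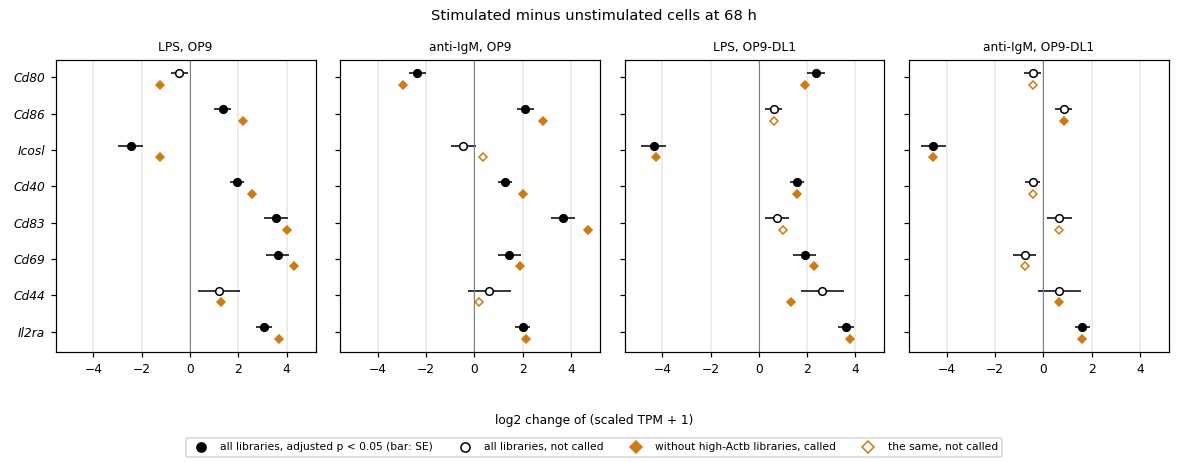
Log2 change of (scaled TPM + 1), stimulated minus unstimulated cells at 68 h, for the 8 genes (vertical axis) in 4 comparisons; black points with SE bars use all libraries and orange diamonds leave out those with high Actb, filled where called at an adjusted p below 0.05. Icosl lies far to the left in both DL1 panels (-4.35 and -4.55) and Il2ra to the right in all 4.

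On OP9 the unstimulated group held far more stromal RNA. Against it, LPS raised 5 of the 8 genes and lowered 1, where 30.5% of all genes were called, and anti-IgM also raised 5 and lowered 1, where 23.9% were called. Cd83 rose by a log2 of 3.55 ± 0.50 with LPS (adjusted p = 6.4e-07) and 3.66 ± 0.50 with anti-IgM (5.5e-07). Il2ra rose by 3.06 ± 0.33 with LPS and 1.99 ± 0.33 with anti-IgM. Cd69 rose by 3.63 ± 0.47 with LPS and 1.44 ± 0.47 with anti-IgM, Cd40 by 1.95 ± 0.29 and 1.26 ± 0.29, and Cd86 by 1.36 ± 0.35 and 2.11 ± 0.35. The gene that fell was Icosl with LPS (-2.46 ± 0.52, adjusted p = 0.00031) and Cd80 with anti-IgM (-2.37 ± 0.35, adjusted p = 2.3e-06). Beside these changes, all 15 stromal genes tested were lower in each stimulated group, with a median log2 of -5.48 for LPS and -5.04 for anti-IgM, and 4 and 5 of 7 B cell markers were higher.

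Without the high-Actb libraries Icosl with LPS was -1.26 (adjusted p = 0.040), and Cd80 (-1.24) and Cd44 (1.28) were called with LPS too. Scaling the libraries to the 7 B cell markers, an alternative chosen after seeing the data, moved the median of all genes to a log2 of -1.28 for LPS and -1.33 for anti-IgM. Cd83 (2.12 and 2.07) and Il2ra (2.30 and 1.18) kept their calls in both comparisons, as did Cd69 with LPS (2.98). Cd86 (-0.01 with LPS and 0.59 with anti-IgM) and Cd40 (0.55 and -0.29) did not. Cd69 with anti-IgM was 0.72 and not called. That call was also lost with TPM as deposited, without OP9 unstimulated replicate 1 and without OP9 anti-IgM replicate 1 or 2. Icosl was called lower with both stimuli (-3.36 and -1.73), and Cd80 with both (-1.77 and -3.48). The call of Cd86 with LPS was lost without unstimulated OP9 replicate 1 as well. With only the groups compared in the fit, Cd83, Cd69 and Il2ra kept their calls with LPS, and no gene kept its call with anti-IgM. The marker sum also differed among DL1 cultures with LPS, whose stromal sums were at most 89.2 TPM at 44 and 68 h. It was 1356, 1502 and 1441 TPM at 44 h and 4360, 4192 and 1876 at 68 h, the last with high Actb. Scaling to these markers therefore carries such differences too and does not measure the share of B cells alone.

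Next the 2 stimuli were compared directly, which leaves the unstimulated cells out. LPS cells had more Cd69 in all 4 comparisons and more Cd80 and Cd40 in 3 each, and anti-IgM cells at 44 h had more Cd86 and, on OP9, more Cd83. In OP9 cells at 44 h, 3 genes were higher and 2 lower with LPS, where 8.63% of all genes were called. Cd40 was higher by a log2 of 1.35 ± 0.29 (adjusted p = 0.0019), Cd69 by 1.71 ± 0.47 (0.015) and Cd80 by 1.25 ± 0.35 (0.019), while Cd86 (-1.39 ± 0.35, adjusted p = 0.0081) and Cd83 (-1.70 ± 0.50, adjusted p = 0.026) were lower. The Cd40, Cd83 and Cd69 calls did not hold with TPM as deposited or with the authors' log2 table, nor did that of Cd69 with a pseudocount of 0.1. The Cd83 call was lost when any 1 of the 6 libraries was left out. The Cd80 call was lost without anti-IgM replicate 3 or LPS replicate 1 or 2, and that of Cd69 without anti-IgM replicate 2 or LPS replicate 3.

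In DL1 cells at 44 h, Cd40 (2.03 ± 0.29, adjusted p = 1.2e-05) and Cd69 (2.15 ± 0.47, 0.0039) were higher with LPS and Cd86 was lower (-1.44 ± 0.35, adjusted p = 0.012). These are 3 of the 8 genes, where 2.91% of all genes were called. Cd86 lost its call without anti-IgM replicate 2 or LPS replicate 2, and Cd69 with TPM as deposited, the authors' log2 table or a pseudocount of 0.1. Cd83 (-1.22 ± 0.50, adjusted p = 0.28) was called in the fit without high-Actb libraries (adjusted p = 0.029). No library of this comparison or of the one on OP9 at 44 h has high Actb.

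At 68 h in DL1 cells 4 genes were higher with LPS and none lower, where 4.39% of all genes were called. Cd80 differed by a log2 of 2.80 ± 0.35 (adjusted p = 1.2e-06), Cd69 by 2.66 ± 0.47 (0.00027), Cd40 by 2.04 ± 0.29 (1.1e-05) and Il2ra by 1.99 ± 0.33 (9.4e-05). Without the high-Actb library of the LPS group these 4 differences were 2.34, 3.03, 2.01 and 2.17. With the authors' log2 table the calls of Cd69 and Il2ra were lost, and with only the groups compared those of Cd80 and Il2ra. Cd86 (-0.25 ± 0.35) and Cd83 (0.09 ± 0.50) did not pass.

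On OP9 at 68 h, 3 of the 8 genes were called, where 4.56% of all genes were. Cd80 (1.92 ± 0.35, adjusted p = 0.00046) and Cd69 (2.19 ± 0.47, 0.0027) were higher with LPS, and Icosl was lower (-2.0 ± 0.52, adjusted p = 0.017). Cd40 (0.69) did not pass. Without the high-Actb replicate 3 of each group, Icosl differed by -1.6 (adjusted p = 0.040), and Il2ra (1.57) and Cd44 (1.1) were called as well. The Icosl call was lost when replicate 3 of either group alone was left out, and that of Cd69 with the authors' log2 table or a pseudocount of 0.1. With only the groups compared in the fit, all 3 calls were lost.

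**Figure D3:**
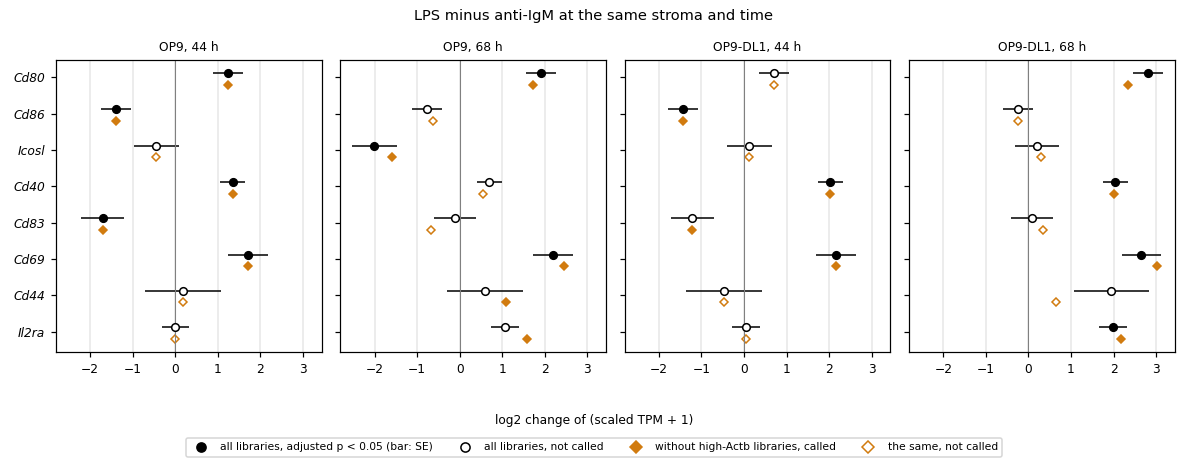
Log2 change of (scaled TPM + 1), LPS minus anti-IgM at the same stroma and time, for the 8 genes; black points with SE bars use all libraries, orange diamonds leave out those with high Actb, and filled symbols were called at an adjusted p below 0.05. Cd69 lies to the right in all 4 panels (1.71 to 2.66) and Cd86 to the left in the panels of 44 h (-1.39 and -1.44).

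Whether the Notch ligand on the stroma changed these genes was asked at each stimulus and time, as DL1 minus OP9. With a stimulus present at 44 or 68 h, 1 gene passed in 1 of the 4 comparisons, Icosl. With LPS 0 of the 8 genes were called at 44 h, where 0.16% of all genes were, and 0 at 68 h, where 0.064% were. In limma 0 members had an unadjusted p below 0.05 at 44 h and 1 had at 68 h, Cd40 (log2 0.88 ± 0.29, adjusted p = 0.79). With anti-IgM 0 were called at 44 h (1 at an unadjusted p below 0.05), where 0.897% of all genes were, and 1 at 68 h, where 1.73% were.

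Icosl was lower in DL1 cells with anti-IgM at 68 h, at 0.441, 0.297 and 0.671 scaled TPM against 7.18, 6.31 and 9.10 in OP9 cells (log2 -2.53 ± 0.52, adjusted p = 0.0091). At 44 h the values were 0.639, 0.575 and 0.284 against 3.21, 2.80 and 2.48 (log2 -1.36 ± 0.52, adjusted p = 0.34), also without overlap. Without the high-Actb libraries the difference was called at both times, at -2.4 (adjusted p = 0.0020) and -1.36 (0.039). The call at 68 h was lost without DL1 replicate 2 and with only the compared groups in the fit. With only the compared groups the difference at 44 h was called (-1.36, adjusted p = 0.0067). The log2(value + 1) scale understates the change of a gene this scarce.

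At 20 h the ligand comparisons set 3 libraries with high Actb (DL1 with LPS, OP9 with anti-IgM) against 3 without. With LPS, Il2ra (0.975, 1.18 and 1.75 scaled TPM in DL1 cells against 18, 11.6 and 14.8 in OP9 cells) was lower in DL1 cells (log2 -2.77 ± 0.33, adjusted p = 1.7e-06). Cd86 (-1.61 ± 0.35, adjusted p = 0.0032) and Cd80 (-1.31 ± 0.35, adjusted p = 0.016) were lower as well, which makes 3 of the 8 genes, where 8.81% of all genes were called. The Cd80 call was lost without DL1 replicate 1 or 3, with the authors' log2 table and with a pseudocount of 0.1. With only the groups compared in the fit, the calls of Cd80 and Cd86 were lost. With anti-IgM, Icosl (-1.49 ± 0.52, adjusted p = 0.041) and Cd44 (-2.48 ± 0.89, adjusted p = 0.045) were lower in DL1 cells, 2 of the 8 genes where 20.5% of all genes were called. Both calls were lost without any 1 of the DL1 libraries, without OP9 replicate 1 or 3, and with no filter on low values. They were also lost with only the groups compared in the fit, and that of Icosl with TPM as deposited. Cd69 (1.25, adjusted p = 0.053) was called higher in DL1 cells with TPM as deposited (1.69, adjusted p = 0.044) and with a filter at 5 TPM (1.25, adjusted p = 0.044). With TPM as deposited the split was thus 1 higher and 1 lower. Cd80 (0.45, adjusted p = 0.36) was called higher with the authors' log2 table (1.61, adjusted p = 0.048), where the split was 1 higher and 2 lower.

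**Figure D4:**
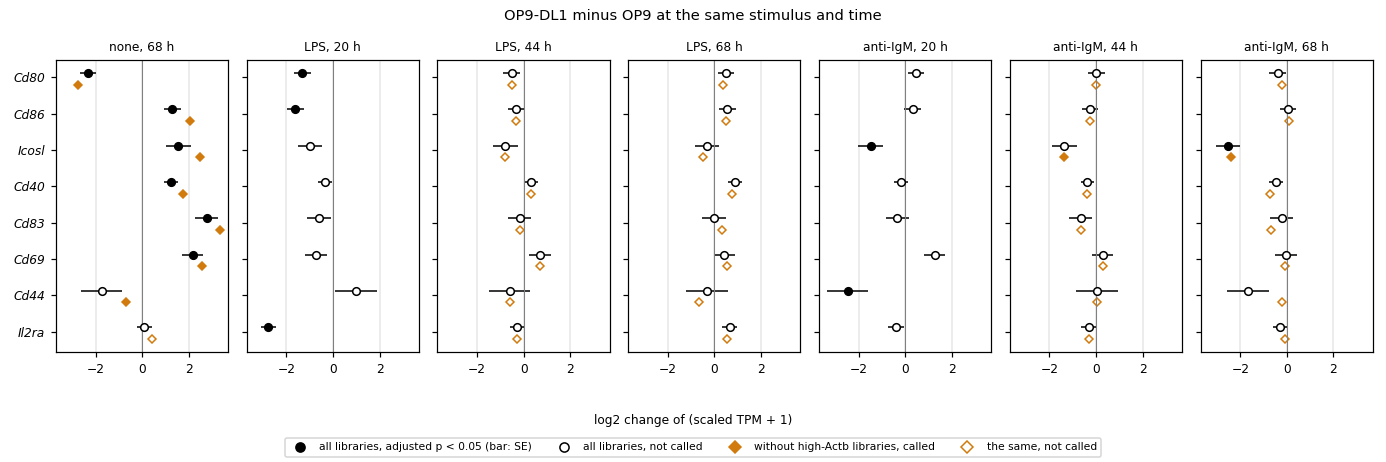
Log2 change of (scaled TPM + 1), DL1 minus OP9, for the 8 genes in 7 comparisons; black points with SE bars use all libraries, orange diamonds leave out libraries with high Actb (no value at 20 h, where a whole group has it), and filled symbols were called at an adjusted p below 0.05. The unstimulated panel holds 6 filled black points and the 20 h panels hold 3 with LPS and 2 with anti-IgM, and Icosl is the filled point at 68 h with anti-IgM (-2.53).

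In unstimulated cells at 68 h, 5 genes were higher and 1 lower in DL1 cells, 6 of the 8 genes where 26.5% of all genes were called. Cd83 (1088, 634 and 611 scaled TPM against 35.1, 149 and 248) was higher by a log2 of 2.77 ± 0.50 (adjusted p = 5.5e-05) and Cd69 (12.5, 13.6 and 20.0 against 0, 6.18 and 5.39) by 2.16 ± 0.47 (0.00055). Icosl (1.56 ± 0.52, adjusted p = 0.024), Cd86 (1.30 ± 0.35, 0.0049) and Cd40 (1.24 ± 0.29, 0.0013) were higher, and these 3 genes overlapped between the groups. Cd80 was lower (-2.33 ± 0.35, adjusted p = 3.5e-06), with 1.78, 0.966 and 0.720 against 12.1, 14.5 and 4.94. Cd44 (-1.74 ± 0.89) and Il2ra (0.09 ± 0.33) did not pass, and Cd44 was called without the high-Actb library (-0.69, adjusted p = 0.013). The Cd86 call was lost without OP9 replicate 1, and that of Icosl without OP9 replicate 1 or DL1 replicate 2 or 3 and with a pseudocount of 0.1. With only the groups compared in the fit, the calls of Cd83, Cd69, Icosl, Cd86 and Cd40 were lost and that of Cd80 held. Without the high-Actb library Icosl differed by 2.49 and Cd86 by 2.07.

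The 2 groups also differ in what else was in the tube. All 15 stromal genes tested were lower in DL1 cells (median log2 -4.47), 4 of 7 B cell markers were higher (median 1.76), and the B cell marker sum was 512, 2218 and 1931 TPM in the OP9 libraries against 5739, 6493 and 6128 in DL1. The marker sum did not follow stromal RNA alone. OP9 replicate 3 (1931 TPM of markers) had a stromal sum of 923 TPM and Actb of 39330 TPM. For OP9 replicate 2 (2218 TPM) these were 11600 and 601 TPM. What lowered the marker sum in replicate 3 was not tested. Per 1000 TPM of B cell markers, Cd83 was 72.7, 76.0 and 84.8 in OP9 cells and 231, 140 and 133 in DL1 cells, still without overlap. Cd69 was 0, 3.16 and 1.84 against 2.66, 3.00 and 4.36, which overlapped. Cd86 was 12.6, 8.86 and 18.8 against 9.27, 10.7 and 10.5, and Cd40 was 21.9, 11.8 and 16.0 against 7.77, 14.6 and 15, both overlapping. Cd80 was 25.0, 7.38 and 1.69 against 0.379, 0.213 and 0.157, and Cd44 was 48.4, 9.93 and 66.6 against 3.14, 2.4 and 2.85, and in both genes every OP9 value lay above every DL1 value.

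In the fit scaled to B cell markers the median of all genes in this comparison was -1.43, and 4 of the 8 genes were called. Cd83 (1.07, adjusted p = 0.019) and Cd69 (1.31, 0.024) were higher in DL1 cells, and Cd80 (-3.51, adjusted p = 1.4e-06) and Cd44 (-3.34, adjusted p = 0.0026) were lower. Cd86 (-0.33), Cd40 (-0.41) and Icosl (0.08) were not called. Relative to that median, Cd83 stood at 2.49, Cd69 at 2.73, Cd86 at 1.1, Cd40 at 1.02, Icosl at 1.51, Cd80 at -2.08 and Cd44 at -1.91. Scaling by the low marker sum of the OP9 libraries raises every transcript there, also any of stromal origin. The lower Cd80 and Cd44 of DL1 cells in this fit therefore do not tell B cell from stromal RNA. The part of the stromal RNA itself in Cd80, Cd44 or any other gene was not tested.

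**Figure D5:**
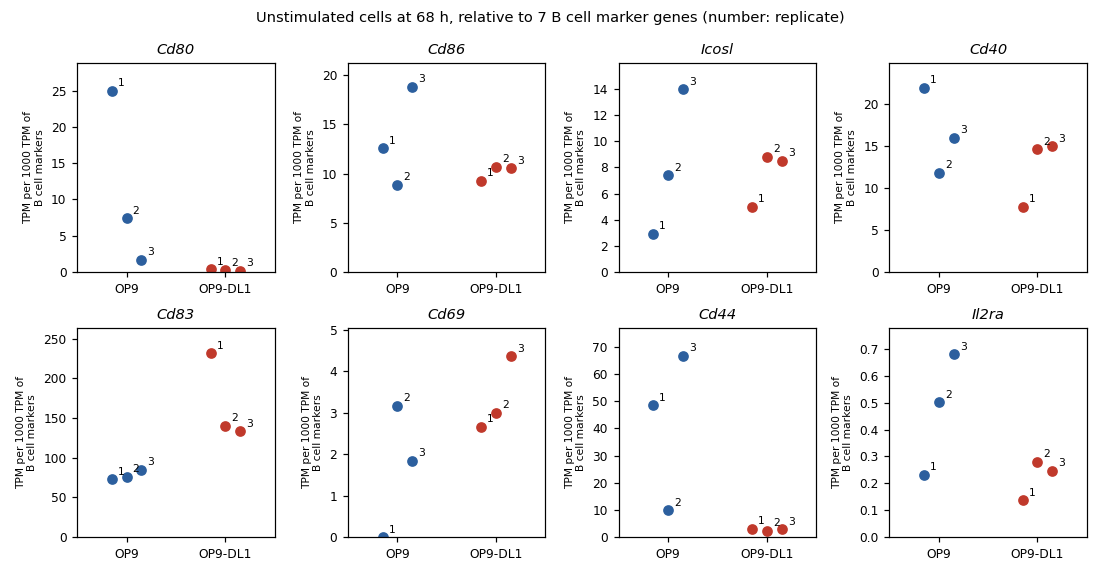
TPM of each of the 8 genes per 1000 TPM of 7 B cell marker genes in the 3 unstimulated OP9 libraries (blue) and the 3 unstimulated DL1 libraries (red) at 68 h, numbered by replicate, on linear axes from 0. Cd83 is higher in DL1 (133 to 231 against 72.7 to 84.8), Cd80 and Cd44 are higher in OP9, and the other 5 genes overlap between the groups.

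Because the ligand comparisons gave such different counts with and without stimulation, the differences between them were tested as interactions. For LPS minus anti-IgM 0 of the 8 genes were called by limma at 44 h, where 0.0833% of all genes were, and 0 at 68 h, where 0.199% were. At an unadjusted p below 0.05 there were 0 and 2. The largest of these was Icosl at 68 h (2.20 ± 0.74, adjusted p = 0.20), so the lower Icosl of DL1 cells was not shown to depend on which stimulus was given. Cd40 at 68 h (1.35 ± 0.41, adjusted p = 0.15) was called without the high-Actb libraries (1.46, adjusted p = 0.0497). Against the unstimulated effect, 2 genes were called for LPS, where 16.1% of all genes were, and 5 for anti-IgM, where 15.6% were. These rest on the unstimulated OP9 libraries described above, and their values are given further on.

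Time was compared within a culture, leaving out steps in which all libraries of a time have high Actb. In DL1 cells with LPS from 44 to 68 h, 3 of the 8 genes rose and none fell, where 7.18% of all genes were called. Cd80 rose by a log2 of 2.13 ± 0.35 (adjusted p = 0.00011), Cd86 by 1.4 ± 0.35 (0.0099) and Il2ra by 1.32 ± 0.33 (0.0087), and without the high-Actb library by 1.66, 1.42 and 1.5. Cd83 (1.33 ± 0.50, adjusted p = 0.11) was called without that library (1.58, adjusted p = 0.0073). The calls of Cd86 and Il2ra were lost without DL1 replicate 2 at 44 h and with the authors' log2 table, that of Cd86 also with TPM as deposited and that of Il2ra with a pseudocount of 0.1. With only the groups compared in the fit, those of Cd80 and Il2ra were lost.

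In OP9 cells with LPS over the same step Cd80 alone passed (1.12 ± 0.35, adjusted p = 0.048), 1 of the 8 genes, where 6.91% of all genes were called. That call was lost without the high-Actb library (0.76, adjusted p = 0.064), in 5 other settings and without 5 of the 6 libraries in turn. Without the high-Actb libraries Cd40 fell, with a log2 of -0.72 (adjusted p = 0.042), beside -0.84 ± 0.29 (0.080) with all libraries. From 20 to 44 h in OP9 cells with LPS 0 were called by limma (1 at an unadjusted p below 0.05), where 1.74% of all genes were, and the fit without high-Actb libraries called Cd80 lower (-1.09, adjusted p = 0.0043).

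With anti-IgM no member passed the test over time in limma. The counts were 0 of 8 in DL1 cells from 20 to 44 h, where 0.0576% of all genes were called, 0 in DL1 cells from 44 to 68 h, where 0.179% were, and 0 in OP9 cells from 44 to 68 h, where 0.0128% were. At an unadjusted p below 0.05 these were 0, 0 and 1. In DL1 cells Cd83 had group means of 1137 ± 254, 1176 ± 93.6 and 1194 ± 61.3 scaled TPM (SD, n = 3) at 20, 44 and 68 h, and Cd86 had 60.5 ± 5.01, 73.8 ± 7.69 and 85.9 ± 10.0.

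Blimp1+ cells were set beside the unsorted DL1 culture with LPS at both later times, since their own time is not labelled. Prdm1, which encodes Blimp1 and was the basis of the sort, measured 75.6 ± 7.66 scaled TPM in them (SD, n = 3) against 3.84 ± 1.26 at 44 h and 4.86 ± 1.21 at 68 h. Blimp1 is the regulator that drives B cells towards plasma cells. Against 44 h, 3 of the 8 genes were higher and none lower, where 12% of all genes were called. Il2ra was higher by a log2 of 1.77 ± 0.33 (adjusted p = 0.00019), Cd80 by 1.73 ± 0.35 (0.00068) and Cd69 by 1.41 ± 0.47 (0.044), the last a call that was lost in 4 other settings and without 5 of the 6 libraries in turn. Against 68 h 0 of the 8 were called by limma (3 at an unadjusted p below 0.05), where 2.84% of all genes were. There Cd86 (38.4, 38.7 and 37.0 scaled TPM against 75.1, 70.1 and 70.0) and Cd83 (558, 518 and 420 against 1535, 1479 and 898) did not overlap. Without the high-Actb library both were called lower in Blimp1+ cells, Cd86 at -0.92 (adjusted p = 0.033) and Cd83 at -1.6 (0.015).

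Other genes of these pathways were counted from lists. In DL1 cells at 68 h the shares of all genes called were 8.1% with LPS and 9.52% with anti-IgM, with medians of 0.01 and -0.07, and these stand beside each count of the same comparisons below. Of 19 genes of CD40 signalling, LPS raised 3 and lowered 1 (median log2 -0.11). By limma anti-IgM raised 0 and lowered 1 of the 19 (1 higher and 5 lower at an unadjusted p below 0.05), with a median of -0.29 and a called share below that of all genes. Nfkbia, which encodes the NF-κB inhibitor IκBα, rose with LPS by a log2 of 3.10 ± 0.38 (579 ± 43.9 against 69.7 ± 26.3 scaled TPM, SD, n = 3). Traf1, a TRAF adaptor induced by NF-κB, rose by 1.76 ± 0.36 and Tnfaip3, the feedback inhibitor A20, by 1.92 ± 0.45. Between the stimuli in DL1 cells at 44 h, 2.91% of all genes were called. There Rel, an NF-κB subunit, was lower with LPS (14.0 ± 1.47 against 60.3 ± 1.53, log2 -2.03 ± 0.35), while Traf1 (1.36 ± 0.36) and Nfkbia (1.61 ± 0.38) were higher. These single genes do not stand for the whole list. In unstimulated cells 7 of the 19 were higher in DL1 cells than in OP9 cells and 0 lower in limma (11 and 1 at an unadjusted p below 0.05), where 8.84% of all genes were higher and 17.6% lower, with Rel at 1.96 ± 0.35 and Traf1 at 1.90 ± 0.36, beside the same shift in B cell markers.

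Of the other B7 family, 3 of 5 genes were tested, and 0 were called by limma between unstimulated and stimulated DL1 cells at 68 h (0 with LPS and 1 with anti-IgM at an unadjusted p below 0.05). Of 5 tested costimulatory ligands of the TNF family, LPS raised 2 and anti-IgM 3 in DL1 cells at 68 h, with medians of 0.32 and 1.47. Tnfsf4 (OX40 ligand) was 4.25 ± 2.18 scaled TPM with anti-IgM and listed at 0 in all 3 unstimulated DL1 libraries, and Tnfsf9 (4-1BB ligand) rose by a log2 of 1.97 ± 0.45. Tnfsf4 was also higher in DL1 than OP9 cells with anti-IgM at 68 h (4.25 ± 2.18 against 0.712 ± 0.129, log2 1.51 ± 0.31), the culture in which Icosl was lower.

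Of 10 partners and feedback genes of the IL-2 receptor, limma called 0 with LPS at 68 h in DL1 cells (0 at an unadjusted p below 0.05) and 1 higher with anti-IgM, counts near the share of all genes called. The 1 gene was Il2rb (the β chain), which rose with anti-IgM by a log2 of 2.28 ± 0.51. Il2rb was lower with LPS than with anti-IgM in DL1 cells at 68 h (1.49 ± 0.904 against 9.37 ± 1.5 scaled TPM, log2 -2.12 ± 0.51), while Il2ra was higher. In Blimp1+ cells Il2rb was higher than in the unsorted culture at 68 h (8.59 ± 1.07, log2 2.01 ± 0.51), where 2.84% of all genes were called. Of 11 other activation genes of the surface, LPS raised 2 in DL1 cells at 68 h, Fas (2.54 ± 0.40) and Cd24a (1.5 ± 0.39), and anti-IgM raised 3, with medians of 0.49 and 0.68 over the list. Ly6a, which encodes Sca-1, was higher in Blimp1+ cells than in the unsorted culture at 44 h by 2.19 ± 0.31, where 12% of all genes were called.

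Across 13 group means without high-Actb libraries, the pair of members most alike was Cd86 and Cd83 (Pearson r = 0.96, Spearman rho of ranks 0.89). By Pearson r each was the other's closest gene among 9170 candidates. For some other pairs the 2 measures differed, such as Cd86 and Il2ra (0.40 and -0.02). For Cd80 the closest were Phlda3 (0.95), Ccl5 (0.95) and Cdkn1a (0.94), for Cd40 Slc2a3 (0.95), Traf1 (0.93) and Oasl1 (0.92), and for Cd69 Msmo1 (0.95), Fcrl5 (0.95) and Hrh2 (0.94). Icosl lay closest to Cyp27a1 (0.96), Rps6ka5 (0.93) and Ccnt2 (0.91), Il2ra to Ghitm, Ebi3 and Lipo1 (all 0.91), and Cd44 to Tlcd2 (0.88), Rad51b (0.87) and Hmgn3 (0.84). These are descriptions over 13 means. That of unstimulated OP9 cells comes from replicates 1 and 2, whose stromal sums were 16330 and 11600 TPM, and its part in each r was not tested.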

How the data were processed

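RNA of 45 libraries was sequenced from viable sorted cells. The labels' protocols name a SMART-Seq HT kit and the series text a v4 kit, and the series text names both HiSeq and NextSeq instruments, with no word on which library used which. Kallisto and limma, with the builds GRCm38 and mm10, are listed in the submitters' processing notes, and the transcript set is not given in the sources used here. The authors deposited TPM (transcripts per 1e+06, corrected for transcript length) per gene symbol, and the symbols' sums reach 92.1 to 96.0% of 1e+06. The authors also deposited a table of log2 values, used here only as an alternative. No table of read counts was used here. Depth was inferred from the deposited log2 values, whose lowest value in each library is that of an estimated count of 0 when 0.5 is added to each count and the result is scaled to 1e+06 by the library total + 1. It came to 3.07 to 29.1 M estimated reads, with a median of 6.74 M, and the sum of the counts so recovered differed from it by -0.081 to -0.0049%.

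TPM was divided by a median-ratio size factor and tested as log2(value + 1) in limma 3.58.1 (R 4.3.3, trend and robust), with 1 mean per group over all 45 libraries. Genes with at least 1 TPM in at least 3 libraries were kept, 15614 of 30317, and Benjamini-Hochberg adjustment ran over all of them. The 27 comparisons were each called at an adjusted p below 0.05. In data simulated for unstimulated DL1 against OP9 cells over 15614 genes, the calls recovered 67% of 100 genes given a log2 change of 2, and 11% of 100 where the change was 1. The simulated noise was normal, with 1 spread per gene in all groups. In the real comparison 26.5% of genes were called, so these shares do not describe it. Figures were drawn with matplotlib 3.10.9.

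The 8 members were tested in every comparison, and those that did not pass are not all named. Of each other list the counts and at most 4 called genes with the largest change are eligible to be named, and for each member the 3 genes with the highest r over group means. The members and lists were chosen with earlier results of these data known. Alternatives were TPM as deposited, the authors' log2 table, a pseudocount of 0.1, a filter at 5 TPM or none, only the groups compared, leaving out each library, leaving out libraries with Actb of at least 5000 TPM, and a replicate block. A scaling to B cell markers was added after seeing the data. Labels do not say that replicate numbers pair samples. All same-numbered pairs correlated above 0.1 in 4 of 23 comparisons, each with a high-Actb replicate 3 in both groups.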

Additional observations from a re-analysis of the deposited data

Results flagged for a closer look

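For 7 results the difference between DL1 and OP9 cells was itself different in stimulated and unstimulated cultures at 68 h, by a limma interaction test (n = 3 libraries a group). Cd80, lower in unstimulated DL1 than OP9 cells, had a ligand difference that was higher by a log2 of 2.83 with LPS (adjusted p = 0.00011) and by 1.94 with anti-IgM (0.0062). Cd83, higher in unstimulated DL1 cells, had interactions of -2.79 with LPS (adjusted p = 0.0051) and -2.99 with anti-IgM (0.0031). With anti-IgM the interaction was also -4.09 for Icosl (adjusted p = 0.00019), -1.70 for Cd40 (0.0038) and -2.20 for Cd69 (0.020). All 7 calls were lost with only the groups compared in the fit. With the authors' log2 table those of Cd80, Cd40 and Cd69 with anti-IgM were lost, that of Cd80 with anti-IgM also with a pseudocount of 0.1, and that of Cd69 also without unstimulated DL1 replicate 3 or unstimulated OP9 replicate 1. The Icosl interaction with LPS (-1.89, adjusted p = 0.078) was called with TPM as deposited (-2.43, adjusted p = 0.013) and without the high-Actb libraries (-2.99, adjusted p = 0.00096). All 7 contain the unstimulated OP9 libraries, whose stromal gene sum was 923 to 16330 TPM, against 13.8 to 482 TPM in the others. Scaled to B cell markers, the 2 interactions of Cd80 were 4.17 and 3.28 and that of Icosl -2.09, all 3 called. Those of Cd83 (-0.88 and -1.02), Cd69 (-1.12) and Cd40 (0.22) were not. This scaling raises every transcript in the unstimulated OP9 libraries, also any of stromal origin. The kept calls of Cd80 therefore do not tell B cell from stromal RNA. The part of the stromal RNA in these values was not tested.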

How the results depend on the processing

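Of 60 calls of a member in a comparison, 16 held under every alternative setting and 14 of these also without each library in turn. The replicate block and a filter at 5 TPM kept all 27 counts within 1.5 times, and the replicate block changed 1 call (Cd44, LPS against unstimulated DL1 cells, 2.62). Among values called in either fit, the scaling to B cell markers alone turned a direction, each time in a comparison with unstimulated OP9 cells: Cd86 (-0.33) and Cd40 (-0.41) between the stromas, Cd86 with LPS (-0.013), Cd40 with anti-IgM (-0.29), and the interactions of Cd86 (1.08) and Cd40 (1.5) with LPS and of Cd40 with anti-IgM (0.22). Values called in neither fit also turned sign, 19 with TPM as deposited, 19 with the authors' log2 table, 9 without high-Actb libraries, 5 scaled to B cell markers and 81 over all fits that leave out 1 library. The number of members called in the interactions against unstimulated cells scaled to B cell markers was 5 for LPS (all higher) and 2 for anti-IgM. With TPM as deposited it was 2 for LPS against anti-IgM on OP9 at 44 h and 0 for OP9 with LPS from 44 to 68 h, a count also 0 with a pseudocount of 0.1 and with no filter, which gave 0 for the ligand with anti-IgM at 20 h. With the authors' log2 table it was 2 for LPS against anti-IgM in DL1 cells at 68 h and on OP9 at 44 h, 3 for LPS against unstimulated DL1 cells, 2 for the anti-IgM interaction against unstimulated cells, and 1 and 0 for LPS from 44 to 68 h in DL1 and OP9 cells. Without high-Actb libraries it was 2 for Blimp1+ cells against 68 h, 4 for anti-IgM against unstimulated DL1 cells, 5 for LPS against anti-IgM on OP9 at 68 h, 1 and 6 for the LPS interactions against anti-IgM at 68 h and against unstimulated cells, 1 for the ligand with anti-IgM at 44 h and 1 for OP9 with LPS from 20 to 44 h. With only the groups compared, the counts against unstimulated cells were 2 (LPS) and 4 (anti-IgM) in DL1 cells and 3 and 0 in OP9 cells. For LPS against anti-IgM they were 5 and 2 in DL1 cells at 44 and 68 h and 0 in OP9 cells at 68 h. For the ligand they were 1 unstimulated, 1 with LPS at 20 h, and 0, 2 and 0 with anti-IgM at 20, 44 and 68 h. Blimp1+ cells against 44 h gave 5, LPS from 44 to 68 h gave 1 in DL1 and 2 in OP9 cells, and the interactions gave 0 and 0 against unstimulated cells and 2 for LPS minus anti-IgM at 44 h. Leaving out each library in turn gave 0 to 2 for the ligand with anti-IgM at 20 h, 0 to 1 at 68 h, 1 to 3 for DL1 with LPS and 0 to 1 for OP9 with LPS from 44 to 68 h, 2 to 5 for the LPS interaction against unstimulated cells (5 without unstimulated OP9 replicate 3), and 3 to 4 for LPS against anti-IgM on OP9 at 44 h. The cause of these changes was not tested, and fits that leave libraries out also hold fewer of them. At 20 h the ligand comparisons have no value without high-Actb libraries. Depth limits Cd80 and Icosl most, at a median of 15 and 14.0 estimated reads per library.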
